A study of Mus musculus with 12 samples.

Results

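The acute-phase loci described here are the genomic windows that hold Saa3, Saa1 and Saa2 on chromosome 7 and Lcn2 on chromosome 2. They were followed in bone-marrow-derived macrophages, primary cells grown from mouse marrow, by chromatin immunoprecipitation and sequencing. Members were all listed hotspots (stretches of the genome with excess sequence tags) with at least 1 bp inside chr7:53930000-54040000 or chr2:32220000-32260000 on the mm9 build. There were 40 such hotspots among 50455 in the 10 libraries with a file, 34 in the Saa window and 6 in the Lcn2 window. The loci were selected on measured values, the positions, densities and z scores of hotspots in these same libraries, so their values are given as a description, without a test.

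All animals had the C57BL/6J background. Wild-type cells were profiled for RelA, the DNA-binding and transactivating subunit of NF-kB, and for Ikaros, the zinc finger DNA-binding protein that Ikzf1 encodes. Cells labelled as littermate controls, which the labels set apart from wild type, were profiled for RelA only. Each was taken 0, 3 and 8 h after lipopolysaccharide (LPS), a component of the bacterial outer membrane, and untreated wild-type cells gave input DNA. Each group held 1 library. No replicate spread can be had, and no p-value is given. The number of pooled animals or cultures behind a library is not given in the sources used here. Inputs of littermate and Ikzf knockout cells were not analysed here. The file names of most libraries with a file carry another time than the labels, and for example name 3 h where the label of a wild-type sample says 0 h. The labels were followed, so every statement on time rests on them.

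Serum amyloid A proteins are acute-phase apolipoproteins. Saa1 and Saa2 are made mainly by liver and travel with high-density lipoprotein, while Saa3 is the form best known from mouse macrophages and adipose tissue. Lcn2 encodes lipocalin 2, a secreted protein that captures bacterial siderophores and so withholds iron. LPS releases NF-kB from its inhibitors, and RelA then enters the nucleus and binds enhancers and promoters of inflammatory genes. Lcn2 is known as a late NF-kB target in macrophages, and C/EBP factors are known to act with NF-kB at acute-phase promoters.

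The RefSeq promoter sequences of the 4 genes are shown because the members lie in windows drawn around them. They are the 250 bases before a RefSeq start on GRCm38.p6, each 5′ to 3′ in the direction of its gene. They lie at chr7:46715677-46715926 on the minus strand (Saa3), chr7:46742981-46743230 on the minus strand (Saa1), chr7:46751583-46751832 on the plus strand (Saa2) and chr2:32387740-32387989 on the minus strand (Lcn2). This build is not that of the hotspots, so no hotspot was placed on a promoter, exon or intron, and no hotspot was assigned to a gene. Capitals mark matches, on either strand, to the NF-kB pattern (GGG and CC parted by any 5 bases) or the C/EBP pattern TTGCNNAA.
Saa3: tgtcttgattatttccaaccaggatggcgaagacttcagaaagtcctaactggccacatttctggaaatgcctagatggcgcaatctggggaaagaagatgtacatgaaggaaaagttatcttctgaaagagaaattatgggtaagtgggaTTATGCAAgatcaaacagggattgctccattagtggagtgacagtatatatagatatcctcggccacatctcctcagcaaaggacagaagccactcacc
Saa1: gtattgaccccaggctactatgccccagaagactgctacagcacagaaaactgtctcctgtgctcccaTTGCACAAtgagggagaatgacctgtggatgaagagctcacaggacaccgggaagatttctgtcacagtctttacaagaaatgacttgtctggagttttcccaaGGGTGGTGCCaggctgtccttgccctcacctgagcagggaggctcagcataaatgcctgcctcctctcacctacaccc
Saa2: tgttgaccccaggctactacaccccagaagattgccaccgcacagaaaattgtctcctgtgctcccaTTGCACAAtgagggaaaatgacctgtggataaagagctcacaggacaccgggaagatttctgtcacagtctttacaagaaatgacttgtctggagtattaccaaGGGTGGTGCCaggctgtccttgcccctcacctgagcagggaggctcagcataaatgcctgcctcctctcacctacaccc
Lcn2: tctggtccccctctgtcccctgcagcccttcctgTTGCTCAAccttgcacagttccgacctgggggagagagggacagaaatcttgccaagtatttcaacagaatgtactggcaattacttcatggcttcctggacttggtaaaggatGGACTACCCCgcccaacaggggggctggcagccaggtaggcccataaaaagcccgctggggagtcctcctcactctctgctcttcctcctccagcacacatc

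The C/EBP pattern was found in the promoters of all 4 genes, against 9.56% of 32851 promoter sequences of the same length. Its matches began 99 bases before the start in Saa3, 182 in Saa1, 183 in Saa2 and 216 in Lcn2. The NF-kB pattern was found once each in Saa1, Saa2 and Lcn2 and not in the 250 bases of Saa3, against 45.8% of promoters. The Ikaros core GGGAA, searched on both strands, was found in Saa3, Saa1 and Saa2 and not in Lcn2, against 56.2% of promoters. No match of one pattern overlapped that of another. The Saa1 and Saa2 promoters are near copies, identical at 94.8% of 251 aligned positions, so their matches are not separate observations. Of the 200 stretches of 51 bases, the read length, in the Saa2 promoter, 21 also occur in that of Saa1. Tags from such stretches cannot be placed by sequence alone, and how the authors treated them is not given in the sources used here. Saa3 shared at most 52.7% of aligned positions with any of the other 3 promoters, and no stretch of read length.

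Overlapping hotspots of the 9 immunoprecipitated libraries formed 8 regions, 7 in the Saa window and 1 in the Lcn2 window, numbered along chromosome 7 in the order of their coordinates. RelA was listed after LPS at 7 of the 8, against 52.0% of 32740 regions merged over the whole genome, and Ikaros at 7 of the 8, against 45.7%. Both were listed at 6 of the 8, against 11.9%. RelA was listed after LPS in both series at 5 of the 8, against 5.68%. These shares cover regions of any strength. Of the 8 wild-type RelA hotspots in the windows at 3 h, 7 were in the strongest 20.0% of their list by z score. In that part of the list, 77.5% of hotspots overlapped Ikaros at 3 h and 80.4% littermate RelA at 3 h. The shares over all regions thus do not compare regions of like strength. None of the 8 regions was listed for either factor at 0 h, and input DNA had no hotspot in either window. In the GRCm38.p6 gene table the protein-coding genes in order are Saal1, Saa3, Saa4, Saa1, Saa2 and Hps5. Only their order is used here.

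**Figure D1:**
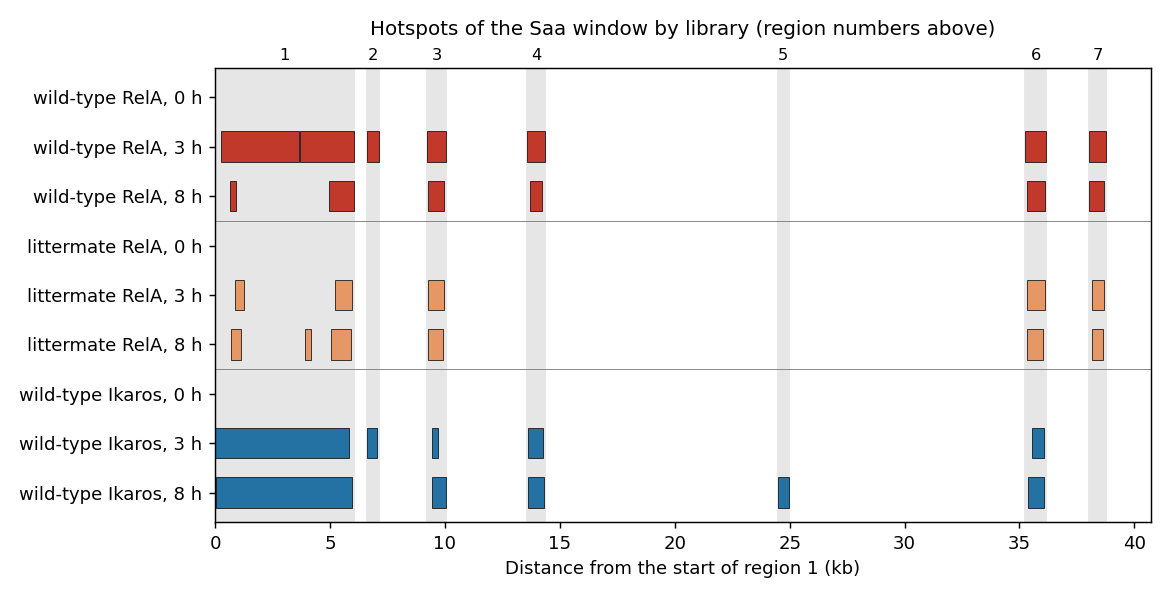
Hotspots of the Saa window drawn to scale, with distance from the start of region 1 in kb on the x axis and 1 row per immunoprecipitated library. Grey bands are the 7 regions; the rows at 0 h are empty, and region 1 is the widest.

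Absence at 0 h has little weight of its own. The wild-type RelA list at 0 h held only 47 hotspots, that of Ikaros 853 and that of littermate RelA 5805. Of all merged regions in the genome, 79.8% were listed at no 0 h, so the share here is not far from what most regions show. The weakest listed z score, the authors' measure of enrichment within a library, was 9.93 for wild-type RelA, 10.9 for littermate RelA and 9.90 for Ikaros at 0 h. The cut-off of the lists is not stated, so those values are only the lowest seen. Binding too weak to be listed would not appear.

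After LPS the regions were shared widely between libraries. Saa regions 1, 3 and 6 and the Lcn2 region were listed in all 6 libraries taken at 3 and 8 h, that is, for RelA in both series and for Ikaros at both times. Over the genome, 377 of 32740 regions had the same presence in these 6 and absence at 0 h, or 1.15%. This share, too, covers regions of any strength. Saa region 7 was listed for RelA in all 4 libraries and not for Ikaros, as were 0.171% of regions. Saa region 4 was listed for both factors in wild-type cells at both times and not in littermate cells, as were 0.394%. Saa region 2 was listed at 3 h alone, for both factors in wild-type cells, as were 0.699%. Saa region 5 was listed for Ikaros at 8 h alone, as were 20.6%.

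Saa region 1, on chromosome 7 at 53965595 to 53971632, was the densest of the 8 regions in each of the 6 libraries after LPS. In wild-type cells RelA was listed there at 3 h as 2 hotspots with only 47 bp between them. The first spanned 3386 bp from 53965859 to 53969245, with a highest density of 36.6 and z 33.1. The second spanned 2330 bp from 53969292 to 53971622, with a highest density of 75.1 and z 59.4. Density here is the authors' tag density, whose scale is not stated. By width these were the hotspots ranked 6 and 15 of 4972, and by z score those ranked 345 and 41.

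At 8 h the same stretch held 2 distant RelA hotspots in wild-type cells, each narrower than its counterpart at 3 h. The right one spanned 1064 bp from 53970568 to 53971632, with a highest density of 91.4 and z 54.8, and ranked 37 of 1878 by z score and 25 by width. The left one spanned 288 bp from 53966231 to 53966519, with a highest density of 17.5 and z 11.9, and ranked 1625. The gap between them was 4049 bp. Less of the stretch was thus listed than at 3 h, while its right end kept the highest density. Tags under the threshold of the 8 h list would not appear.

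Littermate RelA showed the same right-hand peak. At 3 h it spanned 743 bp from 53970822 to 53971565, with a highest density of 32.3 and z 32.0, ranked 731 of 9999. At 8 h it spanned 861 bp from 53970654 to 53971515, with a highest density of 64.4 and z 38.4, ranked 54 of 5231. A weaker left hotspot was listed as well, with highest densities of 11.1 at 3 h and 19.3 at 8 h. A middle one, from 53969493 to 53969755, was listed at 8 h alone with a density of 14.2. In all 4 RelA libraries after LPS the right-hand hotspot was therefore the densest, and a left-hand one accompanied it.

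Ikaros covered region 1 as 1 unbroken hotspot at both times. At 3 h it spanned 5811 bp from 53965595 to 53971406, with a highest density of 72.1 and z 59.9. At 8 h it spanned 5895 bp from 53965651 to 53971546, with a highest density of 77.8 and z 58.4. By width it ranked 6 of 7109 Ikaros hotspots at 3 h and 4 of 13796 at 8 h, against median widths of 533 and 566 bp in the whole lists. By z score it ranked 41 and 91, or the top 0.577% and 0.660%, against the top 1.05% and 0.910% of the lists as deposited, before input overlaps were removed. The Ikaros hotspot of 3 h held 100% of the left RelA hotspot of that time and 90.7% of the right one. The files give no position for the densest point, so it cannot be said where within the 5811 bp Ikaros was densest.

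**Figure D2:**
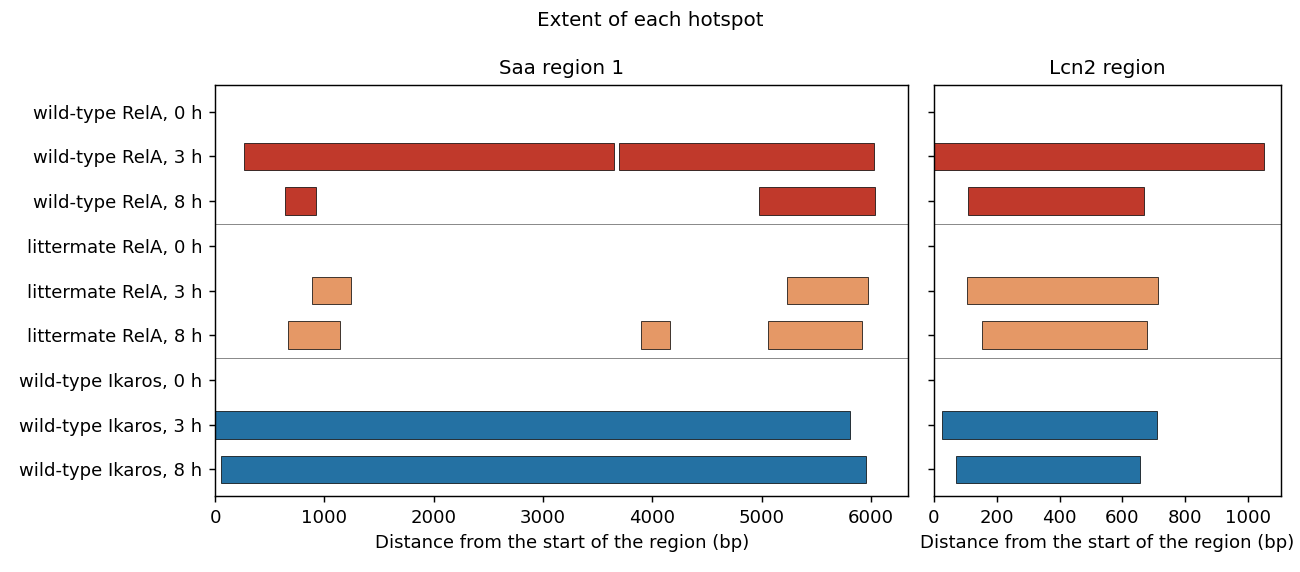
Extent of each hotspot in Saa region 1 (left) and the Lcn2 region (right), with distance from the start of the region in bp on the x axis and 1 row per library. Ikaros fills Saa region 1 at 3 and 8 h, whereas wild-type RelA at 8 h and littermate RelA at 3 h are listed only toward its ends, and littermate RelA at 8 h has a further hotspot between them; in the Lcn2 region all 6 hotspots overlap.

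Saa region 2 lay 573 bp beyond region 1, at 53972205 to 53972738, and was weak. RelA had a highest density of 20.8 and z 13.2 in wild-type cells at 3 h, ranked 2356 of 4972. Ikaros had a highest density of 22.9 and z 11.5 at 3 h, ranked 5116 of 7109. Both values lay close to the median density of their lists, 18.5 and 22.0. At 8 h neither factor was listed there.

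Saa region 3, at 53974822 to 53975657, was a single compact hotspot in each library. The highest RelA density was 50.3 at 3 h and 32.8 at 8 h in wild-type cells, and 21.3 at 3 h and 39.9 at 8 h in littermate cells. That of Ikaros was 19.4 at 3 h and 34.0 at 8 h. RelA was thus lower at the later time in one series and higher in the other, while Ikaros was higher. The Ikaros hotspot at 3 h was among the weakest of its list by z score, with z 9.84 and rank 7080 of 7109, and spanned 274 bp. At 8 h it spanned 617 bp with z 16.1 and ranked 5498 of 13796. By z score the RelA hotspots ranked 335 of 4972 at 3 h and 385 of 1878 at 8 h in wild-type cells.

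Saa region 4, at 53979182 to 53979943, was listed for RelA and Ikaros in wild-type cells. At 3 h its highest density was 1.57 times the median of its list for RelA and 1.36 times for Ikaros. RelA reached 29.1 at 3 h and 27.7 at 8 h in wild-type cells, with z 22.0 and 16.1. Ikaros reached 29.9 at 3 h and 50.2 at 8 h, with z 18.3 and 27.8. In the Ikaros lists it moved to the top 10.2% by z score at 8 h, against the top 24.5% at 3 h. The centres of the RelA and Ikaros hotspots lay 12 bp apart at 3 h and 7 bp apart at 8 h. The absence of this region from both littermate lists cannot be read as absence of RelA, since RelA too weak to be listed would not appear. The littermate lists held 9999 hotspots against 4972 in wild-type cells at 3 h and 5231 against 1878 at 8 h. Their median highest densities were 4.11 against 18.5 at 3 h and 4.56 against 25.5 at 8 h. The weakest z scores of the littermate lists were slightly below those of the wild-type RelA lists at both times. Whether z scores have a like scale in the 2 series was not tested, so neither length nor lowest z score measures how readily a region would be listed. Why the region was not listed in littermate cells was not tested.

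Saa region 5, at 53990087 to 53990560, was listed in 1 library only. Ikaros at 8 h had a highest density of 27.5 and z 10.7 there and ranked 11847 of 13796 by z score. Of all regions in the genome, 20.6% were listed for Ikaros at 8 h alone, which makes this the commonest kind among the 8.

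Saa region 6, at 54000855 to 54001750, differed little between times for wild-type RelA. In wild-type cells its highest RelA density was 46.9 at 3 h and 51.3 at 8 h, with z 33.9 and 36.4. In littermate cells it was 31.0 at 3 h and 47.2 at 8 h, with z 32.8 and 29.4. These values placed it in the top 6.56% and 8.25% of the wild-type lists and the top 6.62% and 2.41% of the littermate lists. Ikaros differed more between times, with a highest density of 19.7 and z 12.8 at 3 h and a highest density of 52.1 and z 26.9 at 8 h. Its hotspot spanned 499 bp at 3 h and 700 bp at 8 h, and its place was the top 11.1% at 8 h, against the top 57.3% at 3 h.

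Saa region 7, at 54003606 to 54004357, lay 1856 bp beyond region 6 and differed from it in carrying no Ikaros hotspot at any time. At 3 h its wild-type RelA density was near that of region 6. It was 51.6 at 3 h and 33.5 at 8 h in wild-type cells, with z 32.2 and 21.1. In littermate cells it was 16.4 at 3 h and 25.0 at 8 h, with z 12.1 and 16.1. It ranked 369 of 4972 at 3 h in wild-type cells by z score, and 6436 of 9999 in littermate cells. Regions with this pattern of libraries numbered 56 of 32740 in the genome, or 0.171%. By wild-type RelA z score at 3 h, region 7 ranked 2 among them. Ikaros too weak to be listed would not appear. RelA without Ikaros was not rare in general. Of wild-type RelA hotspots at 3 h, 27.3% met no Ikaros hotspot at any time, and 8.35% of the strongest 20.0% by z score did not, a group in which region 7 falls.

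The Lcn2 region, on chromosome 2 at 32243046 to 32244097, was the only one in its window and was listed in all 6 libraries after LPS. Wild-type RelA spanned 1051 bp at 3 h with a highest density of 51.8 and z 41.8, ranked 180 of 4972. At 8 h it spanned 559 bp with a highest density of 25.5 and z 17.6, ranked 802 of 1878. This density equalled the median of the 8 h list, 25.5, whereas the 3 h density was 2.80 times the median of its own list.

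Littermate RelA at the Lcn2 region had a highest density of 28.4 at 3 h and 30.2 at 8 h, with z 26.9 and 20.7. It ranked 1344 of 9999 and 393 of 5231. Ikaros had nearly equal values at both times, with highest densities of 31.0 at 3 h and 32.7 at 8 h and z 17.1 and 18.3. Its places were the top 29.1% and the top 29.9%. The RelA and Ikaros hotspots had centres 159 bp apart at 3 h and 25.0 bp apart at 8 h, since the RelA hotspot of 3 h reached farther on one side.

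**Figure D3:**
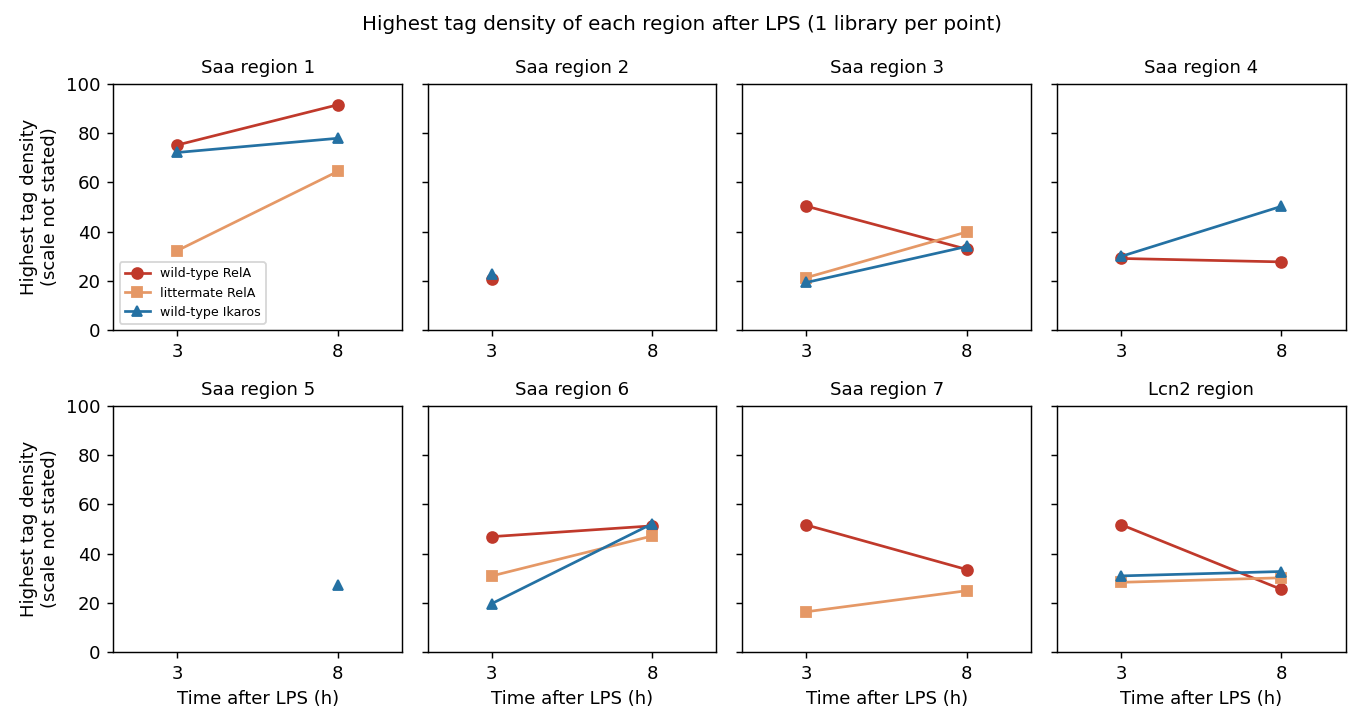
Highest tag density (y axis, the authors' scale, not stated) at 3 and 8 h after LPS (x axis) for the densest hotspot of each region, 1 library per point. Saa region 1 is the highest in every library, and Saa regions 2 and 5 have values at 3 h alone and 8 h alone.

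Because the density scale is not stated and may differ between libraries, densities were also set against Saa region 1 of the same library. For RelA this ratio was lower at 8 than at 3 h for all 4 other regions with values in both series. In wild-type cells the Lcn2 region stood at 0.279 of region 1 at 8 h, against 0.689 at 3 h. In littermate cells it stood at 0.469 at 8 h, against 0.878 at 3 h. Lcn2 thus moved the same way in both series on this scale, although its density alone did not.

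Saa region 7 stood at 0.367 of region 1 at 8 h, against 0.687 at 3 h, in wild-type cells, and at 0.387 against 0.509 in littermate cells. Saa region 3 stood at 0.359 at 8 h, against 0.669 at 3 h, in wild-type cells. In littermate cells its ratio hardly differed, at 0.619 at 8 h and 0.661 at 3 h. Saa region 6 had the highest ratio at 8 h in both series, 0.561 in wild-type and 0.732 in littermate cells. At 3 h it stood at 0.624 in wild-type cells, below the Lcn2 region and Saa regions 7 and 3, and at 0.959 in littermate cells, above the others. Region 1 is the common denominator, so these ratios are not separate observations.

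For Ikaros the Saa regions went the other way relative to region 1. Saa region 6 stood at 0.670 of region 1 at 8 h, against 0.274 at 3 h, and Saa region 4 at 0.645 against 0.415. Saa region 3 stood at 0.436 at 8 h and 0.269 at 3 h. The Lcn2 region did not share in this, with 0.421 at 8 h and 0.429 at 3 h. Set against each of the other Saa regions in turn, with region 1 left out, the Lcn2 region was lower at 8 h in 4 of 4 comparisons for wild-type RelA, 3 of 3 for littermate RelA and 3 of 3 for Ikaros. The ratio at 8 h was between 0.450 and 0.758 of that at 3 h for wild-type RelA, between 0.570 and 0.701 for littermate RelA and between 0.401 and 0.630 for Ikaros. These comparisons share the Lcn2 value of each library, and with 1 library per time there is no error to judge them by.

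**Figure D4:**
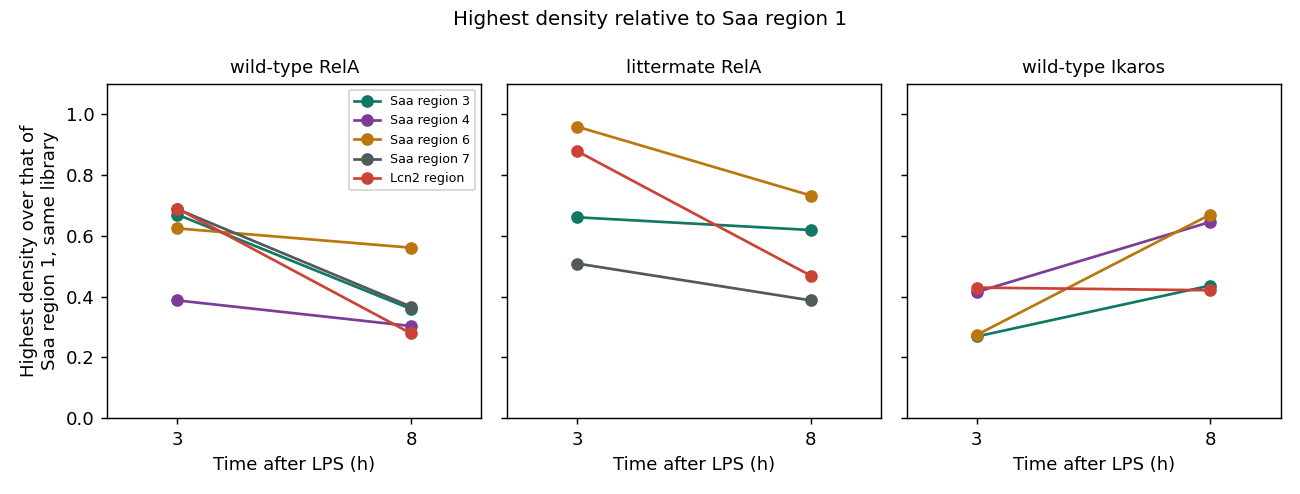
Highest density of each region divided by that of Saa region 1 in the same library (y axis, no unit) at 3 and 8 h after LPS (x axis). For RelA every line is lower at 8 h, while for Ikaros the lines of Saa regions 3, 4 and 6 are higher and that of the Lcn2 region is nearly level.

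Counts of members were set beside the same counts over whole lists. Of the 8 wild-type RelA hotspots at 3 h, 7 overlapped one at 8 h, against 31.3% of 4972. In the strongest 20.0% of the list by z score, where 7 of the 8 fell, the share was 77.1%, and 7 of 7 members overlapped. Ikaros at 3 h overlapped 7 of the 8, against 54.0% of the list, and 6 of the 7 in its strongest 20.0%, against 77.5%. Littermate RelA at 3 h overlapped 6 of the 8, against 34.4%, and 6 of the 7 in its strongest 20.0%, against 80.4%. Beside RelA hotspots of like strength, the shares of members are thus close to those of the list. At 8 h, Ikaros overlapped 6 of 7 wild-type RelA members, against 80.5% of 1878. Littermate members at 3 h overlapped littermate RelA at 8 h in 6 of 6 cases, against 14.4% of 9999, and wild-type RelA at 3 h in 6 of 6, against 17.3%. The littermate 3 h list had a median highest density of 4.11, against 11.1 to 32.3 in its 6 members, so those shares do not compare hotspots of like strength.

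Seen from Ikaros, 6 of 6 member hotspots at 3 h overlapped wild-type RelA at 3 h, against 37.1% of 7109. At 8 h, 5 of 6 overlapped RelA, against 10.8% of 13796. None of the 6 at 3 h lay on an Ikaros hotspot of 0 h, against 10.6% of the list that did, and 5 of 6 overlapped one at 8 h, against 82.1%. The windows were picked with such values in view, so these counts support nothing by themselves.

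The Saa window was dense in hotspots for its length. It held 7 wild-type RelA hotspots at 3 h and 6 at 8 h within 110 kb. When the genome was divided into 24021 stretches of this length, 0.0833% of them held 7 or more at 3 h and 0.0167% held 6 or more at 8 h. For littermate RelA the window held 5 hotspots at 3 h and 6 at 8 h, which 0.325% and 0.0250% of stretches reached. For Ikaros it held 5 at each time, reached by 0.716% of stretches at 3 h and 2.41% at 8 h. All 7 regions fell within 38.8 kb. The window was chosen with these hotspots known, and the stretches were cut without regard to clusters. Most stretches were empty, with 12.9% holding any wild-type RelA hotspot at 3 h and 5.59% at 8 h. Saa region 1 alone gave 2 hotspots to each wild-type RelA count, and 2 at 3 h and 3 at 8 h for littermate RelA. The shares of stretches thus support nothing by themselves.

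Outside the windows the nearest hotspots were few. Before the Lcn2 window, wild-type RelA at 3 h had a weak hotspot 1100 bp away, at 32218564 to 32218900, with a highest density of 14.6 and z 10.9. After it, the nearest was an Ikaros hotspot of 8 h at 32284936 to 32285498, 24936 bp away, with a highest density of 25.2 and z 14.7. The nearest to the Saa window was a littermate RelA hotspot of 0 h 47542 bp before it, with a highest density of 5.69, and on the other side none lay within 223447 bp. Inside the Saa window the outermost hotspots were those of regions 1 and 7, described above, and the Lcn2 window held the 1 region only.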

How the data were processed

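Bone-marrow-derived macrophages were cross-linked and immunoprecipitated, and libraries were read from a single end (labels' protocols). The authors deposited 1 list of hotspots per library on mm9, with CASAVA named in the submitters' processing notes. No source used here names an aligner or a caller of hotspots, its cut-off, any use of input or the origin of coordinates, so coordinates are printed as deposited. Per the file headers, each hotspot has a highest and a mean tag density, a signal of unstated scale, a z score and a p-value, all the authors' own values within that library. Z scores were used to rank within a list and, in an alternative setting, as a floor of 12 for every list. They are printed as deposited, and whether their scale is alike between libraries was not tested. The p-values were not used. Depth per library is unknown.

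Any hotspot sharing 1 bp or more with wild-type input was dropped, which took none from the windows. Hotspots of different libraries that overlapped by 1 bp or more were joined into regions. Width is end minus start, and a place in the top x% is rank over list length. Every merged region of the windows is described. The windows, lists and settings were chosen with earlier results of these data known. Promoter patterns were searched in RefSeq sequences of GRCm38.p6. Overlap counting was tested on simulated lists. Computations used Python 3.11.15, numpy 2.4.6, pandas 2.3.3, scipy 1.17.1 and Biopython 1.88, and figures matplotlib 3.10.9. Alternatives were the lists as deposited, floors on density and z score, the upper part of each list, and other rules of joining.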

Additional observations from a re-analysis of the deposited data

Results flagged for a closer look

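Between 3 and 8 h several RelA values moved in opposite directions in wild-type and littermate cells. With a single library per time and series, the differences were not tested. The number of hotspots in the windows differed by -1 in wild-type cells and by 1 in littermate cells at 8 h relative to 3 h. The highest density at the Lcn2 region differed by -26.3 and 1.84, at Saa region 3 by -17.5 and 18.5, and at Saa region 7 by -18.1 and 8.53, in each case wild type first and 8 h minus 3 h.

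The place by z score, in percent of the list counted from the strongest, moved away from the top in wild-type cells and toward it in littermate cells. The 8 h minus 3 h differences were 39.1 and -5.93 percentage points at the Lcn2 region, 1.15 and -6.28 at Saa region 1, 13.8 and -18.0 at Saa region 3, 1.70 and -4.21 at Saa region 6, and 22.6 and -44.4 at Saa region 7. Ranked by highest density instead, Saa regions 1, 3, 6 and 7 still moved away from the top in wild-type cells and toward it in littermate cells. Saa region 3, for example, stood at 28.2% at 8 h and 4.93% at 3 h in wild-type cells, and at 3.19% and 7.08% in littermate cells. Only the Lcn2 region moved away from the top in both series by this ranking. Its places were the top 49.6% at 8 h and 4.63% at 3 h in wild-type cells, and the top 6.25% at 8 h and 3.86% at 3 h in littermate cells. List lengths were 1878 (8 h) and 4972 (3 h) in wild-type cells, and 5231 (8 h) and 9999 (3 h) in littermate cells. In wild-type cells the rank number by z score itself was nearer the top at 8 h for Saa region 1, at 37 against 41, and Saa region 6, at 155 against 326. It was farther from the top at Saa regions 3 and 7 and the Lcn2 region. The part of list length and depth in these values was not tested. Relative to Saa region 1 of the same library, RelA at Saa regions 3, 6 and 7 and at the Lcn2 region was lower at 8 h in both series.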

How the results depend on the processing

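A count is taken as moved when it changes by over 1.5 times. The 3 counts of the 0 h libraries were 0, which a stricter setting cannot change, and are left out here. Of 40 alternatives to the other 8 counts, 39 stayed within the bound, and the floors could only lower a count. The exception was the number of Ikaros hotspots at 3 h, which was 3 with the upper 50% of each list by z score, against 6 with all hotspots. The lists as deposited and the density floor of 10 could not change any count. No hotspot had been removed in the windows, and the lowest member density was 11.1. Ikaros at 3 h with a z floor of 12 and littermate RelA at 3 h with the upper 50% each gave 4, against 6, exactly on the bound. The alternative that used the 3 h or the 8 h libraries alone was added after the data were seen. Ranking by highest density rather than z score shifted the place of 37 of the 40 hotspots beyond a 95% exact binomial interval. That interval was computed from rank and list length and is narrower for longer lists. A rank in a fixed list is not a count of independent draws, so the interval measures no error. With lists as deposited, 2 places moved beyond the interval, those of Ikaros in Saa region 1. They were the top 1.05% at 3 h and 0.910% at 8 h, against 0.577% and 0.660%. All 13 littermate hotspots stood higher by density than by z score, as did 9 of 12 for Ikaros and 7 of 15 for wild-type RelA. No paired analysis was possible because the groups hold 1 library each and no value comes from a test. Leaving out a replicate was not possible either. Depth is unknown, so weak binding below a list's threshold cannot be told from none.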
